A study of Homo sapiens with 12 samples.

Results

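The MYC, MAX and MXD network is a group of 10 genes: MYC, MAX, MXD1, MXD3, MXD4, MXI1, MNT, MGA, MLX and MLXIP. They were taken as a named list of the proteins that join MAX or MLX at E-box DNA, with no threshold on a measured value. All 10 were among the 25733 genes of the table, and all 10 were among the 12341 genes tested, those whose FPKM averaged 1 or more over the 12 libraries. FPKM is the number of reads on a gene scaled by its length and by a factor for its library, so levels of different genes can be compared per length. That factor was not simply the number of reads on genes.

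The RNA came from HCT116, an established cell line of human colorectal cancer, and was sequenced as 3 libraries in each of 4 groups. Control cells got neither agent. The NH4Cl group got 10 mM ammonium chloride as a source of ammonia for 24 h. The TGF-β group got vehicle for 23 h and then 200 pM TGF-β for 1 h, and the group with both agents got NH4Cl for 23 h before the same hour of TGF-β. The study asked what ammonia does to these cells and to their response to TGF-β, and all values come from a single cell line in culture. Reads on genes per library were 15298508 to 16700597 in control (median 16647681), 14830829 to 18191998 with TGF-β (15073706), 14931020 to 15880031 with NH4Cl (14956458) and 14807630 to 17620222 with both (15671088). Of 10 markers of intestinal epithelium, 9 averaged 1 FPKM or more, with KRT18 highest at 876, EPCAM at 254, CDX2 at 13.6 and KRT20 lowest at 0.190. Of 6 fibroblast markers 2 reached that level, LUM at 7.79 and COL1A1 at 1.68, while COL1A2 was at 0.00653 and COL3A1 at 0.00745. None of 3 leukocyte markers found in the table reached it, and of 3 endothelial markers VWF did, at 3.01.

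MYC is a transcription factor that binds DNA only after pairing with MAX, and the pair sits at E-boxes and activates genes for ribosomes, nucleotides, glucose use and cell division. The MXD proteins, MXI1 and MNT also pair with MAX, occupy the same sequences and bring SIN3 corepressors, so they work against MYC, while MGA joins MAX in a repressive Polycomb complex. MLX resembles MAX and pairs with MLXIP, also called MondoA, which turns on genes when sugar phosphates build up. In the intestine MYC is kept high by WNT signalling, which is active without restraint in most colorectal cancers, and TGF-β is known to lower MYC in epithelial cells.

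Replicate 3 stood apart from replicates 1 and 2 in every group, and this has to be read before any comparison. The FPKM values of replicate 3 libraries summed to 301728 to 305984, against 262958 to 278920 in the other libraries, and mitochondrial genes took 4.50% to 5.12% of their reads against 2.46% to 3.18%. Replicate 3 was above both other replicates in all 4 groups for 3090 of the 12341 genes (25.0%) and for 6 of the 10 network genes, namely MYC, MXD1, MXD3, MXD4, MXI1 and MNT. It was below both in all 4 groups for 3122 genes (25.3%) and for MGA and MLXIP, while MAX and MLX overlapped. The level in replicate 3 divided by the mean of replicates 1 and 2, averaged over the 4 groups, was 2.14 for MXD1, 1.91 for MXI1, 1.57 for MXD3, 1.41 for MYC, 1.28 for MNT and 1.18 for MXD4. The same ratio was 1.08 for MLX and 1.02 for MAX, and it was 0.799 for MLXIP and 0.752 for MGA, beside a median of 0.996 over all genes tested. With every library scaled to the same sum (TPM), the ratio was 1.90 for MXD1, 1.70 for MXI1, 1.40 for MXD3 and 1.25 for MYC but 1.13 for MNT and 1.05 for MXD4, and the ratios of MLX and MAX passed to the other side of 1, at 0.959 and 0.908. The library factor of the FPKM was smaller relative to reads on genes in replicate 3 than in the other replicates, which raises replicate 3 FPKM. The parts of this factor and of the mitochondrial share in the gap were not tested.

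**Figure D1:**
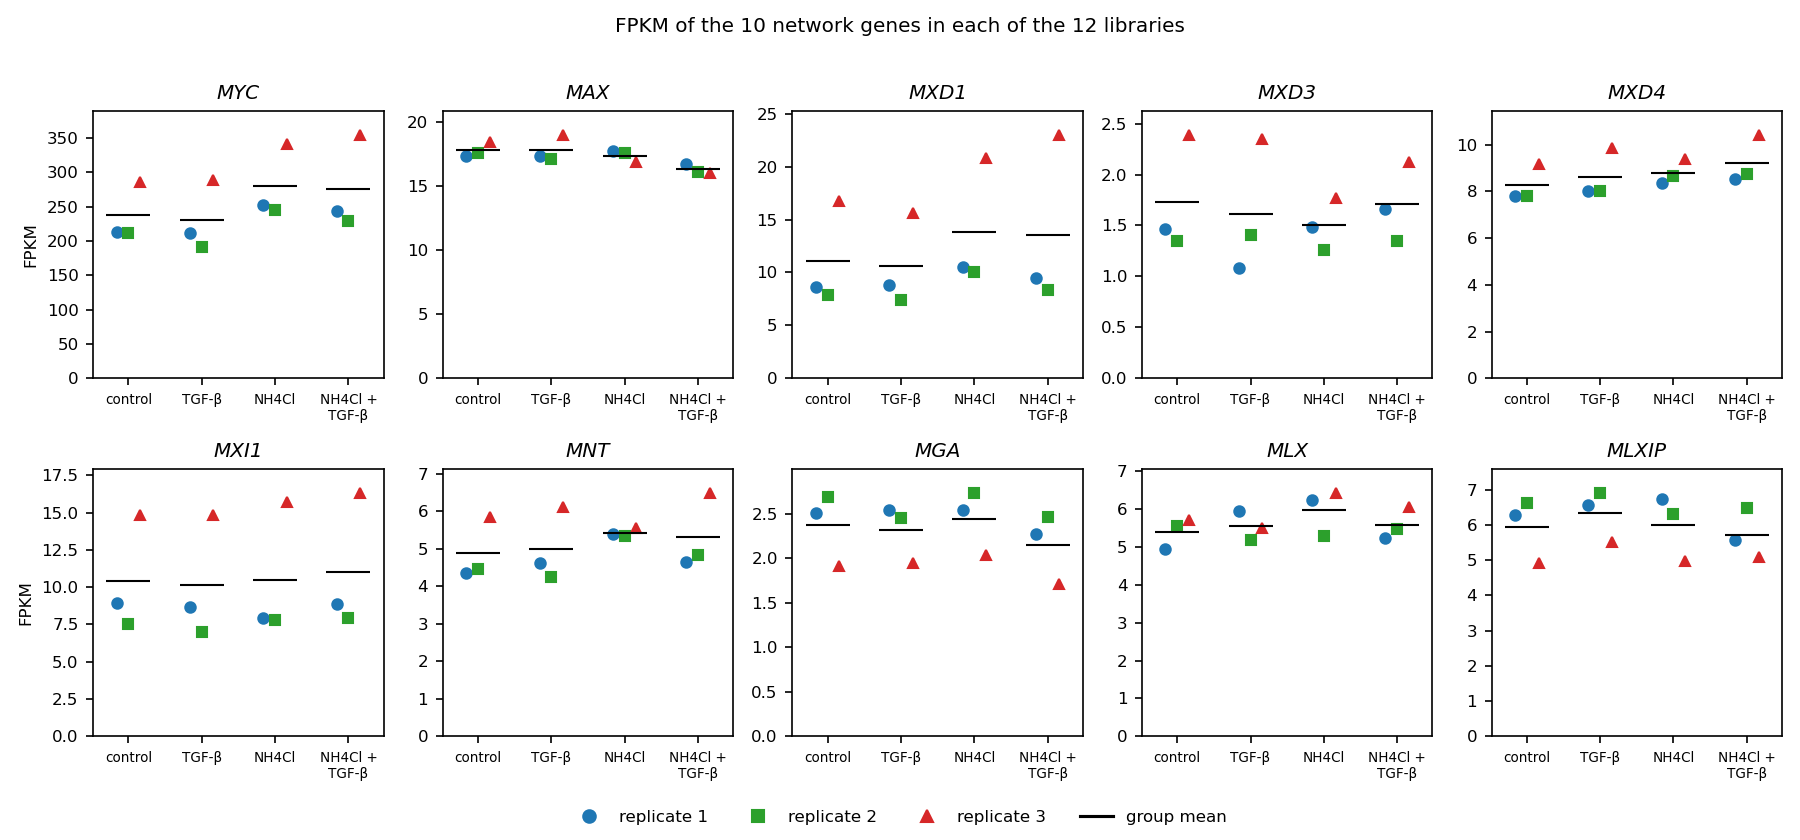
FPKM (vertical axis, from 0) of each network gene in the 12 libraries by group (horizontal axis); symbols and colours are replicates and lines are group means. Replicate 3 is highest in all 4 groups for MYC, MXD1, MXD3, MXD4, MXI1 and MNT and lowest for MGA and MLXIP, and all MYC values lie between 192 and 354.

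Values were compared as log2(FPKM + 1), a scale on which the fold change of a gene with a low FPKM is understated, with limma over the 12341 genes and a threshold of 0.05 on the Benjamini-Hochberg adjusted p. Because same-numbered libraries deviated together, each result was also fitted with the replicate number as a block, which compares libraries within their number. The p-values measure only the spread between these samples, which may be technical repeats of a culture. The comparisons with control share the same 3 control libraries, and those with both agents share the same 3 libraries of that group.

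NH4Cl against control asks what a day of ammonia does to the network. MYC and its antagonist MXD1 were higher with NH4Cl in each replicate number, by a margin smaller than the gap between replicate 3 and the others. The remaining 8 genes were not past the threshold in either fit. Without the block, limma called 47 of 12341 genes (0.381%) and 0 of the 10 network genes, and 0 network genes had an unadjusted p under 0.05. With the replicate block it called 1674 genes (13.6%), of which 916 were higher and 758 lower, or 777 and 892 once each library was centred on its median. It also called 2 network genes, MYC and MXD1, both higher with and without centring, and the same count of 2 had an unadjusted p under 0.05. A count of 2 of 10 is close to the share over all genes, so it is not a result about the network as a group. In a bulk sample, more cells of a kind and more RNA per cell cannot be told apart.

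MYC (ENSG00000136997, chromosome 8) encodes the activating partner of MAX. It was by far the most abundant network gene, with a mean of 256 FPKM over all libraries, rank 120 of 25733, and 8750 to 18024 reads per library. Its FPKM was 214, 212 and 286 in control replicates 1, 2 and 3, and 252, 245 and 341 with NH4Cl. The groups overlapped, because control replicate 3 was above NH4Cl replicates 1 and 2, but within each replicate number the NH4Cl library was the higher, at 1.18, 1.16 and 1.19 times control. The log2 fold change was 0.23, with SE 0.212 and adjusted p 0.800 in limma without the block, and SE 0.0398 and adjusted p 0.00521 with it. In the fit without the block this fold change was much smaller with NH4Cl replicate 3 left out, and larger with control replicate 3 left out. Without any replicate 3 library, the blocked fold change was 0.22 with a limma adjusted p of 0.0285. With replicates 1 and 3 only it was 0.24 with adjusted p 0.0576, and with 2 and 3 only 0.23 with 0.0774, settings chosen after seeing the data in which MYC did not pass. Calls over all genes were also fewer there, 218 and 273 in place of 1674, against 1147 in replicates 1 and 2 only.

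MAX (ENSG00000125952, chromosome 14) encodes a partner shared by MYC, the MXD proteins, MXI1, MNT and MGA. Its FPKM was 17.3, 17.6 and 18.4 in control and 17.7, 17.5 and 16.8 with NH4Cl, from 1078 to 1337 reads per library. The groups overlapped, and replicate 3 was the highest library in control and the lowest with NH4Cl. The log2 fold change was −0.03, with limma adjusted p 0.931 without the block and 0.692 with it.

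Of the antagonists, MXD1 (ENSG00000059728, chromosome 2), which encodes a repressor that takes the place of MYC as cells mature, had the highest mean over all libraries, 12.3 FPKM, raised by replicate 3. MXI1 was above it in control replicate 1, and MXD4 in replicate 2 with TGF-β and with both agents. MXD1 FPKM was 8.64, 7.86 and 16.7 in control and 10.5, 10.1 and 20.8 with NH4Cl. Control replicate 3 was again above NH4Cl replicates 1 and 2, and within each number NH4Cl was higher, at 1.22, 1.28 and 1.24 times control. The log2 fold change was 0.29, with SE 0.426 and limma adjusted p 0.908 without the block and SE 0.0774 and adjusted p 0.0337 with it. Without the block, leaving out 1 library moved the MXD1 fold change from −0.0216, without NH4Cl replicate 3, to 0.61, without control replicate 3. In replicates 1 and 2 alone the blocked fold change was also 0.29, with limma adjusted p 0.0249. With replicates 1 and 3 only it was 0.28 with adjusted p 0.193, and with 2 and 3 only 0.31 with 0.152, so MXD1 did not pass in these pairs, chosen after seeing the data. MXD1 shares 237 exon bases on the same strand with SNRNP27, which had a mean of 9.53 FPKM, so some reads of the pair cannot be assigned with certainty.

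The other antagonists were not past the threshold with NH4Cl. MXI1 (ENSG00000119950, chromosome 10), a close relative of MXD1, had 8.96, 7.52 and 14.9 FPKM in control and 7.96, 7.81 and 15.7 with NH4Cl. Replicate 3 was the high library of MXI1 in both groups, the groups overlapped, and the log2 fold change was −0.01 with limma adjusted p 0.998 without the block and 0.938 with it. MXD4 (ENSG00000123933, chromosome 4) had 7.81, 7.79 and 9.19 FPKM in control and 8.38, 8.66 and 9.38 with NH4Cl. Each NH4Cl library of MXD4 was above the control library of its number, yet at a log2 fold change of 0.08 its limma adjusted p was 0.863 without the block and 0.210 with it. MNT (ENSG00000070444, chromosome 17), the antagonist found in most growing cells, had 4.35, 4.47 and 5.84 FPKM in control and 5.39, 5.32 and 5.54 with NH4Cl. MNT was higher with NH4Cl in replicates 1 and 2 and lower in replicate 3, with a log2 fold change of 0.13 and limma adjusted p of 0.842 and, with the block, 0.279. MXD3 (ENSG00000213347, chromosome 5), known from dividing cells, was the least abundant network gene, with 1.47, 1.34 and 2.38 FPKM in control and 1.48, 1.26 and 1.77 with NH4Cl from 106 to 182 reads per library. Its log2 fold change was −0.11 with limma adjusted p 0.937, or 0.506 with the block. MXD3 shares 1158 exon bases on the opposite strand with PRELID1, which had a mean of 93.4 FPKM, and 926 on the same strand with RAB24, and no source states that strand was used in counting.

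MGA (ENSG00000174197, chromosome 15) encodes the very large protein that carries MAX into a Polycomb complex. It had 2.51, 2.68 and 1.92 FPKM in control and 2.54, 2.73 and 2.03 with NH4Cl. Replicate 3 was the low library in both groups, and the log2 fold change was 0.03 with limma adjusted p 0.984, or 0.774 with the block. In the Mondo arm, MLX (ENSG00000108788, chromosome 17), the MAX-like partner, had 4.95, 5.55 and 5.70 FPKM in control and 6.25, 5.30 and 6.42 with NH4Cl. MLX was higher with NH4Cl in replicates 1 and 3 only, and the log2 fold change of 0.13 had a limma adjusted p of 0.683, or 0.278 with the block. MLX shares 770 exon bases on the opposite strand with PSMC3IP, which had a mean of 2.42 FPKM against 5.63 for MLX. MLXIP (ENSG00000175727, chromosome 12), the sugar-sensing partner, had 6.28, 6.62 and 4.93 FPKM in control and 6.73, 6.31 and 4.99 with NH4Cl. The groups overlapped throughout, and the log2 fold change was 0.01 with limma adjusted p 0.992, or 0.904 with the block; its sign changed with median centring.

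TGF-β against control asks what an hour of TGF-β does on its own. No network gene was past the threshold, and the values of the groups overlapped for each gene. The share of all tested genes whose groups overlapped is not given here, so this overlap is not a result about the network. Without the block limma called 0 of 12341 genes (0.0%) and 0 of the 10 network genes, and 0 of these had an unadjusted p under 0.05, the smallest being 0.540. With the replicate block it called 1 gene (0.0081%) and 0 network genes, again with 0 under an unadjusted 0.05 and the smallest at 0.169. MYC had 212, 192 and 289 FPKM with TGF-β, lower than control in replicates 1 and 2 and higher in replicate 3. The log2 fold change of MYC was −0.05, with limma adjusted p 1.00, so a fall of MYC at 1 h was not detected. Over the 10 genes the log2 fold changes ran from −0.07 for MXD3 to 0.08 for MLXIP, 5 above 0 and 5 below. Within replicate numbers, MXD4 was 1.03, 1.03 and 1.07 times control and MLXIP 1.05, 1.04 and 1.12 times, each higher in 3 of 3 and neither past the threshold.

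Both agents against control asks whether the same picture holds when TGF-β follows NH4Cl. MYC was again higher within each replicate number, MXD4 joined it past the threshold with the block, and MAX had its lowest levels of the study. Without the block limma called 117 genes (0.948%) and 0 network genes, and 1, MAX, had an unadjusted p under 0.05. With the replicate block it called 2274 genes (18.4%), 1315 higher and 959 lower (1164 and 1139 with median centring), and 2 network genes, MYC and MXD4, with 4 under an unadjusted 0.05. The share of 2 in 10 is again near that of all genes.

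MYC had 244, 229 and 354 FPKM with both agents, which is 1.14, 1.08 and 1.24 times the control library of the same number. Its log2 fold change was 0.20, with limma adjusted p 0.774 without the block and 0.00754 with it. In the fit without the block this fold change was much smaller with replicate 3 of both agents left out, and larger with control replicate 3 left out. MXD4 had 8.52, 8.77 and 10.4 FPKM, above the control library of its number by 1.09, 1.13 and 1.13 times. The MXD4 log2 fold change was 0.14, with limma adjusted p 0.627 without the block and 0.0402 with it, and with both agents against NH4Cl it was 0.06 with a blocked adjusted p of 0.804, so the effect of both agents on MXD4 is not shown to differ from that of NH4Cl. The blocked MXD4 fold change was 0.14 with TPM scaling, at limma adjusted p 0.0692, and 0.13 with median centring, chosen after seeing the data, at 0.0595, so MXD4 no longer passed there at a like size. In replicates 1 and 2 alone neither passed, MYC at 0.15 with adjusted p 0.0652 and MXD4 at 0.13 with 0.0979.

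MAX had 16.7, 16.1 and 16.0 FPKM with both agents, below the control library of its number in 3 of 3, at 0.964, 0.917 and 0.869 times. All 3 libraries were below every library of the other groups, the nearest being NH4Cl replicate 3 at 16.8. The MAX log2 fold change against control was −0.12, with limma unadjusted p 0.0485 and adjusted p 0.375, and 0.0971 with the block, so it did not pass. MXD1 had 9.44, 8.34 and 22.9 FPKM, higher than control in 3 of 3, and its log2 fold change of 0.21 had a limma adjusted p of 0.904 without the block and 0.0911 with it. MGA had 2.27, 2.46 and 1.70 FPKM, lower than control in 3 of 3 by ratios of 0.907, 0.917 and 0.890, and its log2 fold change of −0.10 had a limma adjusted p of 0.831, or 0.240 with the block. The remaining MXD3, MXI1, MNT, MLX and MLXIP were past the threshold in neither fit.

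Both agents against TGF-β gives the effect of NH4Cl once more, in cells that all had TGF-β, and shares its libraries with the comparison above. MYC and MXD1 were again the genes past the threshold with the block. Without the block limma called 127 genes (1.03%) and 0 network genes, and MAX alone had an unadjusted p under 0.05, at 0.0484. With the replicate block it called 2322 genes (18.8%), 1275 higher and 1047 lower (1203 and 1167 with median centring), and 2 network genes, with 4 under an unadjusted 0.05. MYC was 1.15, 1.19 and 1.22 times the TGF-β library of its number, with a log2 fold change of 0.25 and a limma adjusted p of 0.704, or 0.00291 with the block. MXD1 was 1.07, 1.13 and 1.47 times it, with a log2 fold change of 0.26 and a limma adjusted p of 0.876, or 0.0444 with the block, though not with TPM scaling, where its fold change was 0.26 with adjusted p 0.0515. In replicates 1 and 2 alone the blocked fold change of MXD1 was smaller, 0.12 with limma adjusted p 0.179, and that of MYC was 0.23 with 0.0214. The unblocked fold change of MYC was much smaller with replicate 3 of both agents left out, and larger with TGF-β replicate 3 left out. MAX was lower in 3 of 3, at −0.12, with limma adjusted p 0.370, or 0.0948 with the block. MLXIP was also lower in 3 of 3, at 0.851, 0.941 and 0.921 times the TGF-β library, with a log2 fold change of −0.13 and a limma adjusted p of 0.771, or 0.145 with the block.

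**Figure D2:**
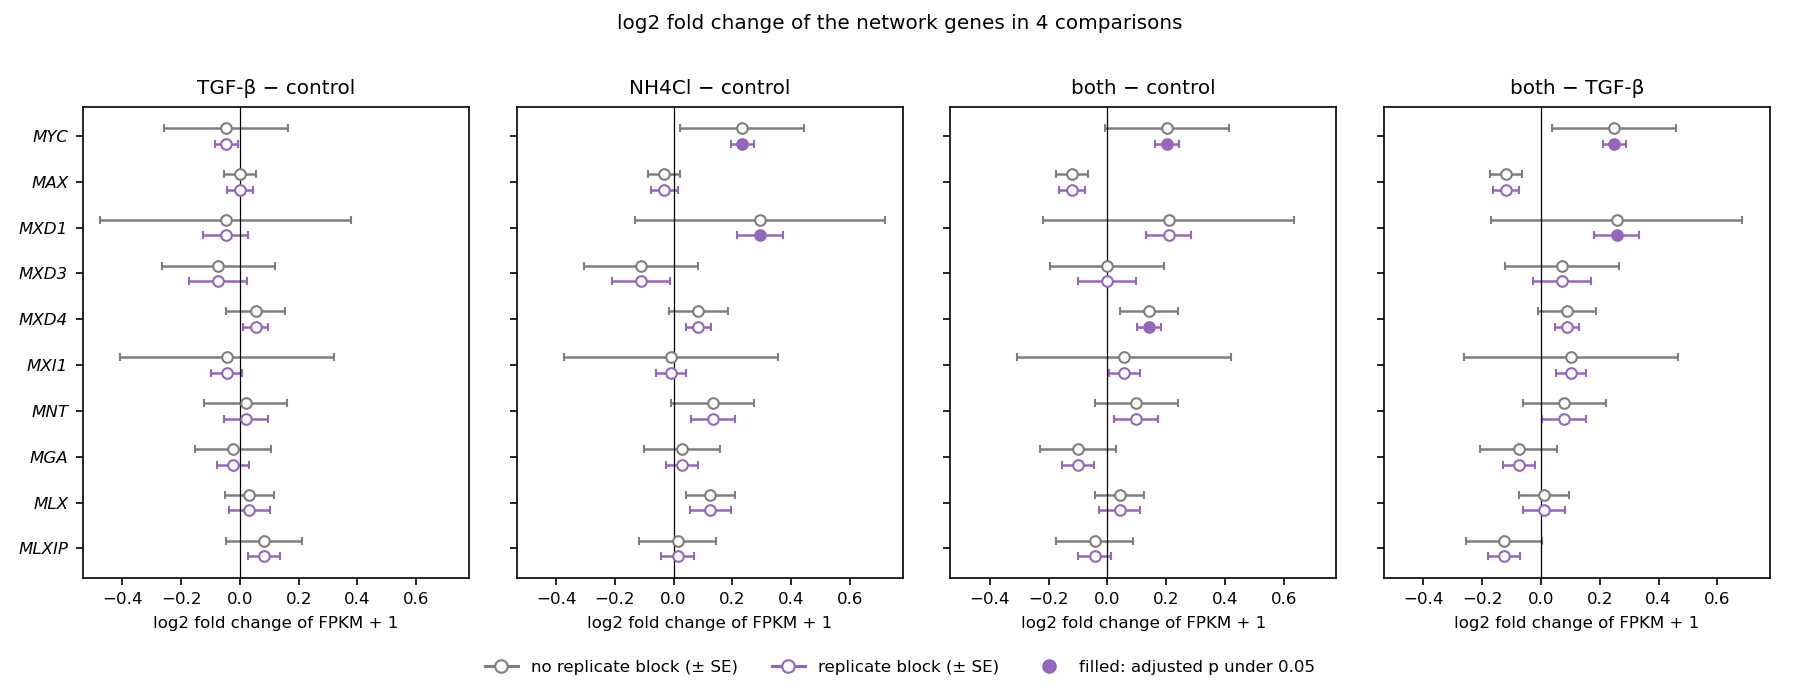
Log2 fold change of FPKM + 1 (horizontal axis) of each network gene (vertical axis) in 4 comparisons, as points with bars of 1 SE, without the replicate block in grey and with it in purple; filled points have an adjusted p under 0.05. The MYC point lies at 0.23, 0.20 and 0.25 in the 3 comparisons with NH4Cl and at −0.05 with TGF-β alone, and no point without the block is filled.

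Both agents against NH4Cl, and the interaction, ask whether TGF-β did something else in cells with NH4Cl. No network gene was past the threshold in either. Both against NH4Cl called 0 of all genes without the block (0.0%) and 1 with it (0.0081%), and 0 network genes in both fits. MGA alone of the 10 had an unadjusted p under 0.05, at 0.0409 with the block, and without it there were 0. Its FPKM was 2.54, 2.73 and 2.03 with NH4Cl and 2.27, 2.46 and 1.70 with both, lower in each number. The interaction called 0 of all genes (0.0%) and 0 network genes with limma in both fits (0.0% with the block), 0 of the 10 had an unadjusted p under 0.05, and the smallest was 0.273, or 0.107 with the block. The interaction of MYC was 0.02, with limma adjusted p 1.00, or 0.992 with the block, and over the 10 genes it ran from −0.14 to 0.18.

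Because the network works as a balance of partners, the levels were also set against each other. MYC held 76.3% to 80.3% of the summed FPKM of the 10 genes in every library. MYC FPKM divided by MAX FPKM was 12.3, 12.1 and 15.5 in control, 12.2, 11.2 and 15.3 with TGF-β, 14.2, 14.0 and 20.3 with NH4Cl and 14.6, 14.2 and 22.1 with both. Within each replicate number both NH4Cl libraries were above both libraries without NH4Cl, and the group means were 13.3 ± 1.94, 12.9 ± 2.10, 16.2 ± 3.56 and 17.0 ± 4.44 (SD, n = 3), in the same order of groups. Across numbers the groups overlapped, as control replicate 3 at 15.5 was above NH4Cl replicates 1 and 2.

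The summed FPKM of the antagonists MXD1, MXD3, MXD4, MXI1 and MNT was 31.2, 29.0 and 49.0 in control, 31.2, 28.1 and 48.7 with TGF-β, 33.8, 33.1 and 53.2 with NH4Cl and 33.1, 31.2 and 58.2 with both. It too was higher with NH4Cl within each number. MYC divided by that sum varied less between groups, at 6.85, 7.31 and 5.84 in control, 6.80, 6.84 and 5.93 with TGF-β, 7.46, 7.41 and 6.41 with NH4Cl and 7.38, 7.34 and 6.08 with both. Replicate 3, where MYC was highest, had the lowest MYC share against its antagonists in all 4 groups. Within each number the libraries with NH4Cl were above those without it, at replicate 2 by as little as 7.34 against 7.31. These ratios are descriptions of transcript levels and were given no test.

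**Figure D3:**
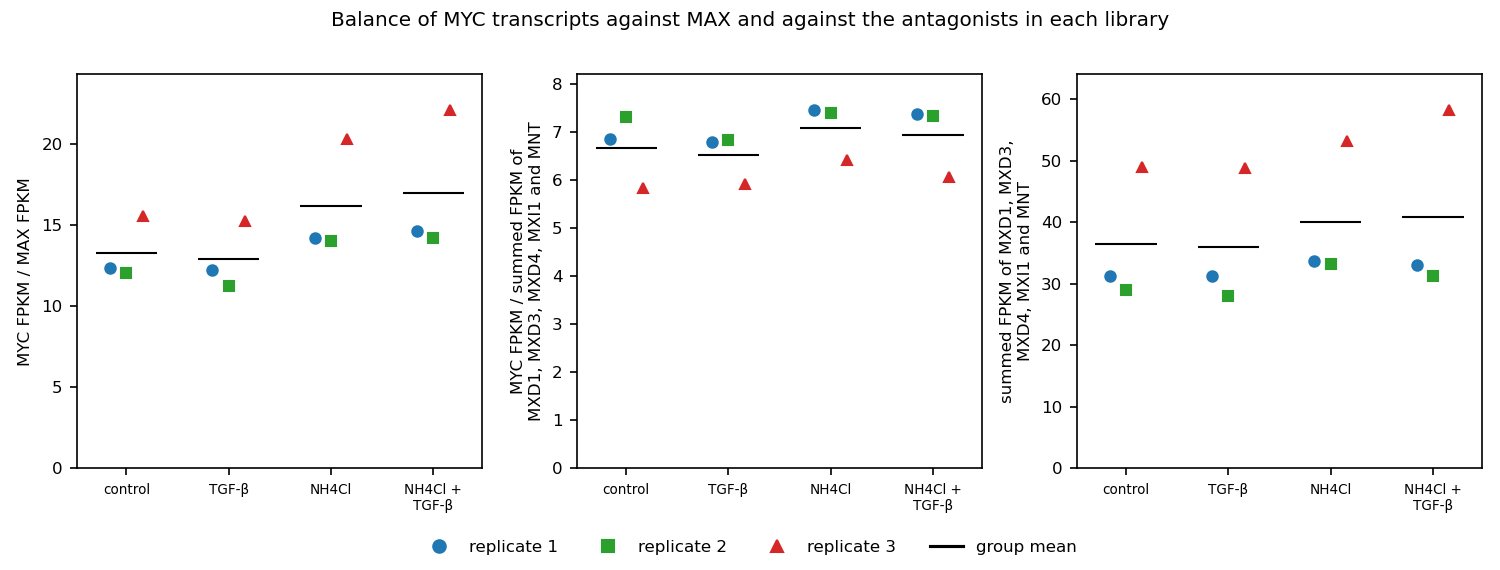
MYC FPKM over MAX FPKM, MYC FPKM over the summed FPKM of MXD1, MXD3, MXD4, MXI1 and MNT, and that sum in FPKM (vertical axes, from 0) in each library by group (horizontal axis), with replicates as symbols and group means as lines. Replicate 3 is highest for MYC over MAX, 15.5 in control and 22.1 with both agents, and lowest for MYC over its antagonists, 5.84 and 6.08.

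Taking each replicate number by itself, MYC and MXD1 were the genes whose 2 libraries with NH4Cl lay above their 2 libraries without it in 3 of 3 numbers. MXD4 and MNT showed this in replicates 1 and 2, MXI1 in replicates 2 and 3, MLX in replicate 3 and MXD3 in replicate 1. The reverse order, both libraries with NH4Cl below both without, was seen for MAX and MXD3 in replicate 3 and for MLXIP in replicate 2. The share of all tested genes in either order is not given here, so these orders are not a result about the network as a group. After subtracting the mean of each replicate number, MYC and MXD1 had a Pearson correlation of 0.928 over the 12 libraries, and 0.975 before it. MYC and MAX had −0.541 after and −0.0692 before. The libraries share groups and replicate numbers, so these correlations describe the table and carry no test. By the same measure, among 7278 genes whose FPKM averaged 5 or more, those most like MYC were NUFIP2 at 0.989, FAM8A1 at 0.983 and ENO2 at 0.980. Those most like MXD1 were DYRK2 at 0.958, TBC1D20 at 0.955 and CALU at 0.950.

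Since the network's proteins bind E-boxes, and since some of its genes moved together, the promoters of its own genes were searched for the canonical E-box CACGTG, which reads the same on both strands, and for the noncanonical CACGCG on both strands. The RefSeq promoter table (GRCh38.p14, 250 bases before to 50 after each start) matched 9 of the 10 genes with 14 windows of 55% to 76% GC, and MYC had no entry. CACGTG was in 3 windows, 1 each of MXD4, MNT and MLX, and in 2548 of 35116 promoters in the table (7.26%). CACGCG was in 3 windows, of MXD3, MXI1 and MGA, and in 4014 of the 35116 (11.4%). The MXD4 window is chr4:2262060-2262359 on the minus strand with its E-box beginning 238 bases before the start, the MNT window chr17:2401011-2401310 on the minus strand with it 193 bases before, and the MLX window chr17:42566850-42567149 on the plus strand with it 50 bases before. They are printed with that of MXD1, chr2:69914859-69915158 on the plus strand, because MXD1 and MXD4 are the antagonists that passed the threshold with the block and MNT and MLX hold the other canonical matches; capitals mark CACGTG, and MXD1 has none.
MXD1: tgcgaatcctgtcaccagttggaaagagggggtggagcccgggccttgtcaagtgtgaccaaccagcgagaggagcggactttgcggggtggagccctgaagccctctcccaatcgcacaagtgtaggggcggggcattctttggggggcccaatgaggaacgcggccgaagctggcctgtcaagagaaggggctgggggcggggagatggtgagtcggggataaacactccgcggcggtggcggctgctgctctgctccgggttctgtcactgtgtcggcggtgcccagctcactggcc
MXD4: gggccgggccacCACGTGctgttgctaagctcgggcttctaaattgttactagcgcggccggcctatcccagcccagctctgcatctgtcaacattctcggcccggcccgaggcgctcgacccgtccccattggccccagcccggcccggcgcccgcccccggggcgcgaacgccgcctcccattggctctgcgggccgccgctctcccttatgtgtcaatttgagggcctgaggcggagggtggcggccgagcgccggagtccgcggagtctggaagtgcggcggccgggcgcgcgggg
MNT: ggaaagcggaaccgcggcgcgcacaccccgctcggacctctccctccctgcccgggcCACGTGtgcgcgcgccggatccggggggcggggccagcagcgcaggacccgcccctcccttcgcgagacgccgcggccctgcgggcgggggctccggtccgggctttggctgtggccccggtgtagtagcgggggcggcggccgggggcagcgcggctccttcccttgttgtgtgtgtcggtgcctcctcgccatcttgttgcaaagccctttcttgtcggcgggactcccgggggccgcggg
MLX: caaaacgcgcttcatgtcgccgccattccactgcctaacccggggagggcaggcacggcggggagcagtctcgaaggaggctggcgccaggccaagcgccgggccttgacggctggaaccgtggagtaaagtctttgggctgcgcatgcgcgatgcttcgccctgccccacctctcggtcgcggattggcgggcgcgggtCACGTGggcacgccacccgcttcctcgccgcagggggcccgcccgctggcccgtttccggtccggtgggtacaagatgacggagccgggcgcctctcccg
Of the genes past the threshold with the block, MXD4 holds these letters and MXD1 does not, and MNT and MLX hold them and were not past it. A match describes letters in the window and is not a binding site.

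The genes that surround the network were taken from 11 lists written from general knowledge, with 192 distinct genes, of which 183 were abundant enough to be tested. With NH4Cl, limma called 1 of the 183 without the block, PKLR, which entered the test through the groups where it is high, and 30 with it (16.4%, beside 13.6% of all genes), 14 higher and 16 lower. With both agents against control the counts were 1, PKLR again, and 50 (27.3%, beside 18.4%), the latter 22 higher and 28 lower. With both against TGF-β they were 1 and 54 (29.5%, beside 18.8%), with 22 higher and 32 lower. TGF-β against control, both against NH4Cl and the interaction each gave 0 in either fit. Medians of list fold changes are log2 values given beside that of all genes, which was 8.41e-05 for NH4Cl and −0.00171 for both against control. List counts with the block are likewise to be read beside 13.6% of all genes with NH4Cl and 18.4% with both agents, and no test was made of a list.

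The relatives of the network, other MYC, MXD and Mondo paralogs and E-box partners, had 8 tested genes. With NH4Cl and the block, 2 were higher and 2 lower, with a median of −0.05, and with both agents again 2 and 2, with a median of −0.03. MYCL, a MYC paralog, had 8.57, 7.89 and 5.42 FPKM in control and 3.95, 3.74 and 3.77 with NH4Cl. The groups did not overlap, the replicate 3 gap seen in control was absent with NH4Cl, and the log2 fold change was −0.76 with limma adjusted p 0.136 without the block and 0.00866 with it, lower in 3 of 3. With both agents MYCL had 3.65, 3.95 and 3.86 FPKM, and with TGF-β 8.31, 8.69 and 4.74. MYCN, the neuronal paralog, had a log2 fold change of −0.37 at a mean of 1.01 FPKM over all libraries, lower in 3 of 3, with limma adjusted p 0.670 without the block and 0.0356 with it. MYCN reached the filter of 1 FPKM only through the groups without NH4Cl, with means of 1.35 in control and 1.24 with TGF-β against 0.818 with NH4Cl and 0.613 with both, so its being tested is not independent of its direction. MLXIPL, which encodes ChREBP, the other sugar-sensing partner of MLX, had 8.81, 8.85 and 10.7 FPKM in control and 11.2, 12.1 and 13.9 with NH4Cl. All NH4Cl libraries of MLXIPL were above all control libraries, with a log2 fold change of 0.36 and a limma adjusted p of 0.354, or 0.00366 with the block. MYC and MLXIPL were thus higher and MYCL lower in the same fit.

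Genes for partner proteins come next. Of 17 coactivators of MYC, 0 passed with NH4Cl in either limma fit, with a median of 0.00, and with both agents and the block 1 was higher and 2 lower (17.6%), with a median of −0.08. Of 14 SIN3 and other corepressors of MXD and MNT, 0 passed with NH4Cl, with a median of −0.02, and 1 was higher with both agents (7.14%), with a median of −0.06. Of 19 genes for turnover and stability of the MYC protein, 1 was higher with NH4Cl and the block (5.26%), with a median of −0.02, and with both agents 3 were higher and 2 lower (26.3%), with a median of −0.06. Of 16 members of the MGA complex PRC1.6, 1 passed with NH4Cl and the block (6.25%), CBX1, lower at −0.16 on the log2 scale with a limma adjusted p of 0.0305. The list median was −0.05. With both agents 1 was lower, with a median of −0.07, and this was RNF2, at −0.16 with a blocked limma adjusted p of 0.0394. CBX1 was at −0.12 there, with a blocked limma adjusted p of 0.0723, and did not pass.

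Among targets that MYC activates, 0 of 31 ribosome biogenesis genes were higher and 4 lower with NH4Cl and the block (12.9%, near the share of all genes), with a median of −0.08. With both agents 0 were higher and 11 lower (35.5%), with a median of −0.11. NOP56, a core protein of the snoRNA particles that modify ribosomal RNA, had 70.7, 67.7 and 53.6 FPKM in control and 59.0, 56.7 and 45.3 with NH4Cl. For NOP56 the log2 fold change was −0.25 with limma adjusted p 0.676 without the block and 0.00199 with it. It was lower in each replicate number while MYC was higher. PES1, at −0.26, and GRWD1, at −0.23, were also lower in 3 of 3, with blocked limma adjusted p of 0.00875 and 0.00833. Of 25 genes of nucleotide, polyamine and folate metabolism, 2 were higher and 3 lower (20%), with a median of −0.01, and with both agents 2 and 4 (24%).

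Of 15 targets in glucose and glutamine use, a list that also holds the transferrin receptor gene, 3 were higher and 3 lower with NH4Cl and the block (40.0%), with a median of −0.05, and with both agents 4 and 1 (33.3%). That receptor gene, TFRC, which brings iron into cells, had 71.6, 71.9 and 86.4 FPKM in control and 90.3, 96.1 and 98.2 with NH4Cl. The TFRC groups did not overlap, and its log2 fold change was 0.31 with limma adjusted p 0.186 without the block and 0.00676 with it. Of 18 targets among cell cycle genes and translation factors, 2 were higher and 3 lower (27.8%), with a median of −0.04, and with both agents 2 and 5 (38.9%). MCM5, a subunit of the DNA replication helicase, had 16.2, 15.8 and 8.95 FPKM in control and 11.2, 11.1 and 6.46 with NH4Cl. Its control replicate 3 was below NH4Cl replicates 1 and 2, yet each NH4Cl library was below the control of its number, with a log2 fold change of −0.46 and a limma adjusted p of 0.716, or 0.000365 with the block. In the same list CCND2 and CKS2 were higher in 3 of 3, at 0.32 and 0.21. Their limma adjusted p was 0.511 and 0.453 without the block, and 0.00814 and 0.00397 with it.

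Of 15 genes that MYC is known to repress, 2 were higher and 0 lower with NH4Cl and the block (13.3%, near the share of all genes), with a median of 0.06, and with both agents 4 and 0 (26.7%), with a median of 0.08. The pair was CDKN2B and CDKN1C, which encode inhibitors of the cell cycle. CDKN2B had 13.9, 13.2 and 23.9 FPKM in control and 18.5, 17.0 and 31.9 with NH4Cl. For CDKN2B the log2 fold change was 0.38, higher in 3 of 3, with limma adjusted p 0.800 without the block and 0.000395 with it. CDKN1C had 9.41, 8.15 and 17.2 FPKM in control and 12.3, 11.7 and 21.2 with NH4Cl. For CDKN1C it was 0.37, higher in 3 of 3, with limma adjusted p 0.812 without the block and 0.000859 with it. Both followed the pattern of MYC itself, with control replicate 3 above NH4Cl replicates 1 and 2, and were higher along with it.

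Of 11 targets of MondoA and MLX, 2 were higher and 0 lower with NH4Cl and the block (18.2%), PKLR and LPIN1, with a median of 0.06, and with both agents 3 and 0 (27.3%), with a median of 0.08. The gene at both medians, TXNIP, is also on the list of genes repressed by MYC. PKLR, which encodes a pyruvate kinase, had 0.615, 0.809 and 0.533 FPKM in control and 1.88, 1.84 and 1.68 with NH4Cl, with no overlap. PKLR reached the filter of 1 FPKM only through the groups with NH4Cl, with means of 1.80 and 1.74 against 0.652 in control and 0.560 with TGF-β, so its being tested is not independent of its direction. Its log2 fold change was 0.76, with limma adjusted p 0.0131 without the block and 0.000985 with it. Without the block the limma call of PKLR was lost without control replicate 1 (adjusted p 0.0637), NH4Cl replicate 1 (0.0683) or NH4Cl replicate 2 (0.0990). It was also lost when only the 6 libraries compared were fitted (0.124). The log2 fold change stayed about as large in these fits, at 0.75, 0.74, 0.75 and 0.76. For both agents against control the call was lost without control replicate 1 (0.0582), without replicate 2 of both agents (0.0588) and with only the libraries compared (0.146). For both against TGF-β it was lost without TGF-β replicate 2 (0.0583) and with only the libraries compared (0.212). There the log2 fold changes were 0.72, 0.71 and 0.73, and 0.80 and 0.81. LPIN1, which makes diacylglycerol for lipid synthesis, had 5.49, 5.72 and 6.32 FPKM in control and 7.32, 7.11 and 8.55 with NH4Cl, with no overlap. LPIN1 had a log2 fold change of 0.34, with its limma adjusted p at 0.198 without the block and 0.00134 with it. KLF10, also a gene that TGF-β induces, had 20.9, 19.9 and 19.3 FPKM in control, 15.8, 16.2 and 19.3 with NH4Cl, 22.5, 23.2 and 22.5 with TGF-β and 18.1, 19.4 and 19.5 with both. Its log2 fold change with NH4Cl was −0.22, lower in 2 of 3, with limma adjusted p 0.263 without the block and 0.0509 with it, so it did not pass.

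**Figure D4:**
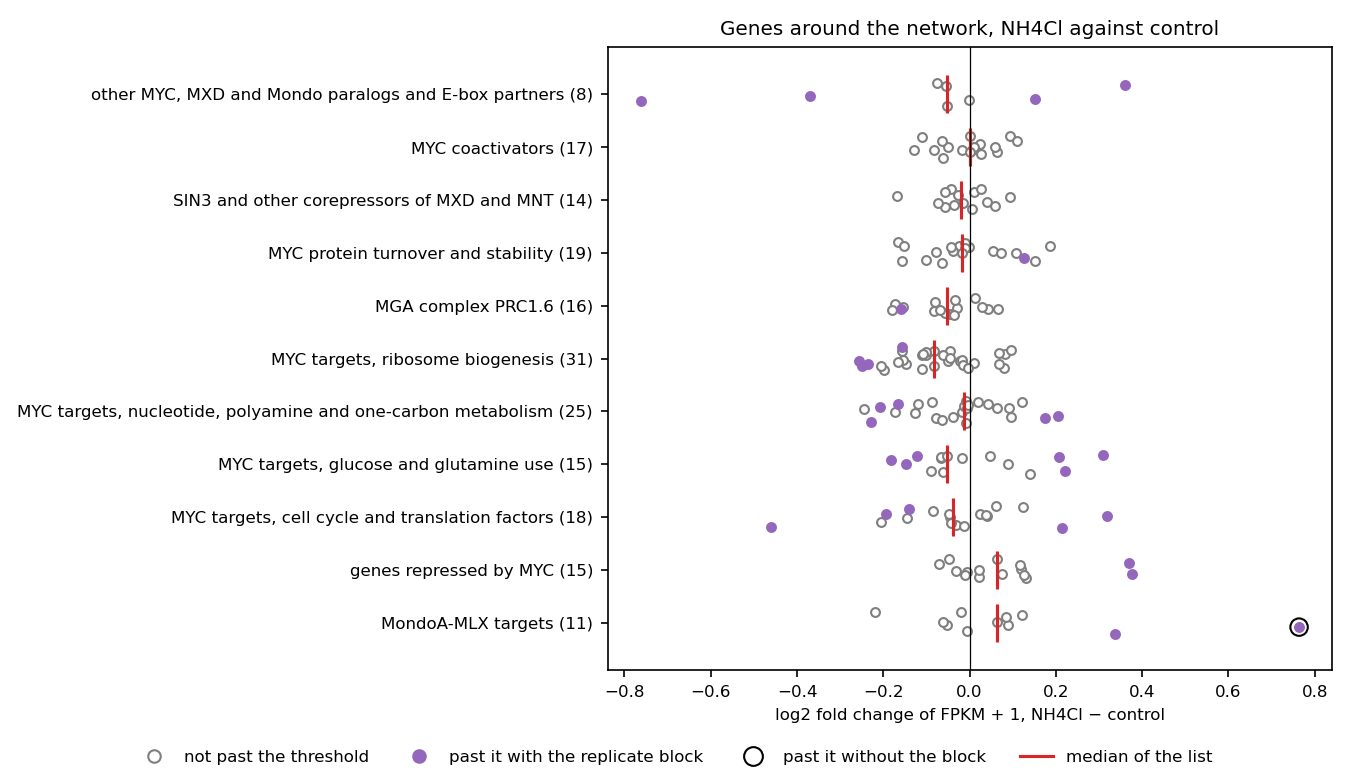
Log2 fold change of FPKM + 1, NH4Cl minus control (horizontal axis), of each tested gene of the 11 lists (vertical axis, number of tested genes in brackets); filled points passed with the replicate block, the ringed point, PKLR, also without it, and red lines are list medians. The outermost points are MYCL at −0.76 and PKLR, which reached 1 FPKM only with NH4Cl, at 0.76, and the ribosome biogenesis median lies at −0.08.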

How the data were processed

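RNA sequencing of HCT116 cells gave 12 libraries, 3 in each of 4 groups, grouped and numbered by the labels, with doses and timing taken from the paper's methods. The authors trimmed reads with Trimmomatic 0.36, aligned them to GRCh38/hg38 with STAR 2.5.2b and counted them with featureCounts of Subread 1.5.2 according to the labels, whereas the paper names HTSeq. They deposited FPKM for 25733 genes. The RNA kit is RNeasy Plus Mini in the labels and PureLink in the paper. GENCODE release 29 (GRCh38) held all the identifiers. FPKM times exon length was divided by a step fitted to each library's own values. The result was a whole number of reads, within 0.05, for 100.0% of values. This gave 14807630 to 18191998 reads per library (median 15484798). No source says that strand was used in counting, so values of overlapping genes are uncertain.

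From the deposited FPKM, log2(FPKM + 1) was taken, with a pseudocount of 1, for the 12341 genes at a mean FPKM of 1 or more. limma 3.58.1 in R 4.3.3 fitted 4 group means with an intensity trend, and 6 comparisons were adjusted over those genes at a threshold of 0.05, two-sided. Deviations from group means correlated between same-numbered libraries in 18 of 18 pairs (0.349 to 0.774). A gap of replicate 3 alone would also give positive values for numbers 1 and 2, and libraries of different numbers were not compared. Pairing of numbers 1 and 2 is therefore not shown, and the labels do not say what a number stands for. Alternatives were a pseudocount of 0.1, no filter, a mean FPKM of at least 5, TPM scaling, median centring, no trend, only the libraries compared, the replicate block (also with TPM scaling and in replicates 1 and 2 only) and each library left out. The block with median centring, with a pseudocount of 0.1 and in replicates 1 and 3 or 2 and 3 only, every alternative for the surrounding genes and lists, and TPM scaling of the replicate 3 ratios were chosen after seeing the data.

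Named genes are the 10 members, and in each list the 3 largest changes with NH4Cl and any gene past the threshold without the block. To them belong the 3 genes most correlated with MYC and with any member past the threshold with the block. RNF2, which passed with both agents and the block, and TXNIP, at the median of lists, were named after their values were seen. The text names part of these. The members and lists were chosen with earlier results of these data known. Promoter sequences are from RefSeq. Other steps used Python 3.11.15, numpy 2.4.6, pandas 2.3.3 and matplotlib 3.10.9, and the model was tested on simulated data.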

Additional observations from a re-analysis of the deposited data

How the results depend on the processing

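Without the replicate block, 0 of the 10 network genes passed limma's threshold in any of the 6 comparisons under every alternative run, including each library left out, with 0 or 1 under an unadjusted 0.05 in each; a mean FPKM of at least 5 left 8 of them tested. With the replicate block the counts for NH4Cl against control, both against control and both against TGF-β were 2, 2 and 2, with TPM scaling added 2, 1 and 1, and in replicates 1 and 2 only 2, 0 and 1. Chosen after seeing the data, the block gave 2, 1 and 2 with median centring, 2, 2 and 2 with a pseudocount of 0.1, 0, 1 and 1 in replicates 1 and 3 only and 0, 0 and 1 in replicates 2 and 3 only. The block changed no other call of a network gene. For NH4Cl against control, all genes split 33 higher to 14 lower without the block, and 33 to 23 with median centring; with the block they split 916 to 758, and 777 to 892 with centring. The log2 fold change of MAX with NH4Cl reversed to 0.0133 with the block in replicates 1 and 2 only, and that of MLXIP to −0.000896 with median centring, with and without the block. Fold changes with the block in replicates 2 and 3 only reversed to 0.0637 for MXI1 and −0.0226 for MLXIP with NH4Cl, and in replicates 1 and 3 only to 0.000544 for MYC with TGF-β, all chosen after seeing the data. Leaving out each library in turn, the log2 fold change with NH4Cl ran from −0.0216 to 0.61 for MXD1, −0.21 to 0.0537 for MXD3, −0.31 to 0.25 for MXI1, −0.0717 to 0.12 for MGA and −0.0955 to 0.12 for MLXIP. It ran from −0.22 to 0.52 for MXD1 and −0.20 to 0.0058 for MGA with both against control, −0.17 to 0.55 for MXD1 with both against TGF-β, and −0.22 to 0.0954 for MYC with TGF-β. Among surrounding genes with NH4Cl it ran from −0.20 to 0.0226 for EP400, −0.0407 to 0.29 for PIM1, −0.14 to 0.0259 for RBBP4, −0.46 to 0.0285 for SKP2 and −0.0655 to 0.38 for GADD45A. Calls among the list genes numbered 30 with NH4Cl and 50 with both against control with the block, 25 and 43 with TPM scaling, 32 and 52 with median centring, 30 and 50 with a pseudocount of 0.1, 23 and 37 in replicates 1 and 2 only, 6 and 12 in 1 and 3 only and 4 and 10 in 2 and 3 only. Without the block they were 0 or 1, the 1 being PKLR. The cause was not tested in any of these. Fits without the block count the gap between replicate 3 and the others as spread within groups of 3 libraries. MXD3, at 104 to 186 reads per library, has the least depth of the 10 genes.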
